A study of Homo sapiens with 2 samples.

Results

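A set of 6 long non-coding RNA (lncRNA) genes with known links to hepatoma was examined: HULC, TUG1, KCNQ1OT1, PVT1, CYTOR and EGOT. They are 6 of the 61541 genes in the deposited table and were found there by gene symbol. The 6 were chosen by name with their reads and fold changes in these same 2 libraries already known, so the differences between the libraries are given as a description, with no test. RNA-seq was done on Huh7 cells, a hepatocellular carcinoma cell line, transfected with a control siRNA (Huh7-NC) or with siRNA against BRF2 (Huh7-si), with 1 library per condition. The study addressed what BRF2 knockdown does to gene expression in these cells, and which of its BRF2 siRNAs was sequenced was not given in the sources used here. BRF2, a subunit of the initiation factor that places RNA polymerase III on small RNA genes, had 1281 reads in Huh7-NC against 364 in Huh7-si (log2 fold change -1.77, interval -1.94 to -1.60).

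An lncRNA is a long transcript that is not translated into a known protein. Some act on the chromatin they are transcribed from, as the imprinted RNA KCNQ1OT1 does, and others act elsewhere in the nucleus or in the cytoplasm by binding proteins or microRNAs. HULC was named for its high level in liver cancer, and TUG1, PVT1 and CYTOR are studied as growth-promoting RNAs in many tumors. EGOT was described in developing eosinophils and later studied in infected hepatocytes and in tumors.

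Each library was sampled at a similar depth, but 22683 genes had reads in Huh7-NC against 24735 in Huh7-si. The estimated counts, which give each gene its share of reads and need not be whole, summed to 22852648 in Huh7-NC against 22089016 in Huh7-si. Folds are ratios of CPM, a gene's reads per 1000000 of that total, and intervals are 95% Clopper-Pearson intervals (for CPM and TPM, exact Poisson intervals). Intervals cover counting error only, since reads without molecular identifiers are not independent molecules and no spread between replicates can be had. As a one-sided limit, a count of 0 allows up to 3 reads, or 0.131 CPM in Huh7-NC against 0.136 CPM in Huh7-si. Genes with 10 or more reads over both libraries, 17955 in all and all 6 lncRNAs among them, had a median log2 fold change of 0.21, and that shift stands behind every value below. The hepatocyte markers ALB (126940 and 113860 reads) and AFP (107941 and 123538 reads) were high in both libraries, and the 8 markers of that list summed to 14877 and 15963 CPM. The 5 markers of other cells summed to 6.17 and 13.3 CPM. Among them the eosinophil markers PRG2 and RNASE2 were at 0 in both libraries, the leukocyte marker PTPRC had 5 and 1 reads, and the fibroblast gene COL1A1 had 76 and 229 reads.

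The sequences at the starts of these genes show how unlike they are, and where a pair of genes is nearly the same. CYTOR and MIR4435-2HG are copies on chromosome 2, and reads from their common stretches cannot be told apart. Their promoters (RefSeq, GRCh38.p14, from 250 bases before to 50 bases after the annotated start, read along the gene) lie at chr2:87455177-87455476 on the plus strand and chr2:111495112-111495411 on the minus strand. Capitals mark the unbroken run of 241 bases that is the same in both.
CYTOR: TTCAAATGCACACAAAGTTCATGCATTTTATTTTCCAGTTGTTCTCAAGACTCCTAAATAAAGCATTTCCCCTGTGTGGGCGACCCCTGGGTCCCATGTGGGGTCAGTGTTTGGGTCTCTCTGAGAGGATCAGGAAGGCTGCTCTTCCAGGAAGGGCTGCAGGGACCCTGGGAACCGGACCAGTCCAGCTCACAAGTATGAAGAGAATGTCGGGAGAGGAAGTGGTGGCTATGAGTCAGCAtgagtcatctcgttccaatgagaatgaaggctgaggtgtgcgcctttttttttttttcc
MIR4435-2HG: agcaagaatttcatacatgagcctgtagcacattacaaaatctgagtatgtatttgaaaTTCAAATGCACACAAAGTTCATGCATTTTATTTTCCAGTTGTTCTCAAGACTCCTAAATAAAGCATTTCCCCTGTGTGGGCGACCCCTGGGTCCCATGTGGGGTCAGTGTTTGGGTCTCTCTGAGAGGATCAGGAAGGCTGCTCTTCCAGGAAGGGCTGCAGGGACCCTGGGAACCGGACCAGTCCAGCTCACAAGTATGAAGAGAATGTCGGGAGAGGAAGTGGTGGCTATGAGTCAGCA
In CYTOR the run covers bases 1 to 241 of the window and in the copy bases 60 to 300, so the annotated starts of the copies are set at different places in the same sequence. The run is cut off by the ends of the windows, so the shared sequence may be longer.

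Both copies also hold a microRNA locus with one mature sequence. The hairpins MIR4435-1 in CYTOR and MIR4435-2 in its copy differ in sequence, while the mature miR-4435 from chr2:87629764-87629785 (plus strand) and from chr2:111321061-111321082 (minus strand) is the same 22 bases. Its seed, bases 2 to 8, is in capitals.
miR-4435: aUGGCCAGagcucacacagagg
Of the distinct 50-base stretches in the 38 annotated CYTOR transcripts, 16.0% occur in MIR4435-2HG transcripts, and 37 of the 38 transcripts hold such a stretch. The share was 10.6% for stretches of 100 bases and 6.40% for 150 bases.

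TUG1 and EGOT are printed because they are the lncRNA with the most reads and the one with the largest fold among the 6. Capitals mark motifs found by letters on either strand (CCAAT, the E-box CACGTG and the GC box GGGCGG). The TATA box TATAAA, the CRE motif TGACGTCA and the AP-1 motif TGAGTCA were searched too. The TUG1 window is chr22:30969015-30969314 on the plus strand and the EGOT window chr3:4751541-4751840 on the minus strand (RefSeq, GRCh38.p14).
TUG1: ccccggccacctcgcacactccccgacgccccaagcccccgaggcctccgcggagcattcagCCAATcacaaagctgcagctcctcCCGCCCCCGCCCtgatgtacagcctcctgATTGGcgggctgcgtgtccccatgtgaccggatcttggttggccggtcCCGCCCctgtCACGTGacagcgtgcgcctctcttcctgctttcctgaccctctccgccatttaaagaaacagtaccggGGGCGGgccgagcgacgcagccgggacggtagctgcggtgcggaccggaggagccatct
EGOT: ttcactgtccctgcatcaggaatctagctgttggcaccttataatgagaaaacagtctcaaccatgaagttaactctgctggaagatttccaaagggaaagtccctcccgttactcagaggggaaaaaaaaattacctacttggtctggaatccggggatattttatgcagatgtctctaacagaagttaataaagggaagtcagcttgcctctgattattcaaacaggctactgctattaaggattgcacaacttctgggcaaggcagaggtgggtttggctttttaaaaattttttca
The TUG1 window held 2 CCAAT boxes, 1 E-box and 4 GC boxes. These letters occur in 34.6%, 7.26% and 45.0% of the 35116 RefSeq promoter windows of this length. EGOT held none of the 6 motifs. CYTOR held 1 CCAAT box and 2 copies of TGAGTCA, the AP-1 motif found in 4.95% of windows, and its copy held 1 TGAGTCA. The CCAAT box and the second TGAGTCA of CYTOR lie past base 241, where the window of the copy has ended. These counts are therefore not a difference shown between the copies. None of the 4 windows held TATAAA (11.5% of windows) or TGACGTCA (1.85%). The TUG1 window was 67.7% G and C with 28 CpG dinucleotides, against 41.3% and 2 in EGOT and 49.7% and 5 in CYTOR. TUG1 starts 491 bases from MORC2, which runs the other way.

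Of the 6 lncRNAs, 3 were at least 2-fold higher in Huh7-si, none was at least 2-fold lower, and 3 lay between. EGOT, KCNQ1OT1 and PVT1 were the 3 that were higher. The background was high: 15.3% of all 17955 genes and 34.3% of the 2613 lncRNA genes (GENCODE release 29) with 10 or more reads were at least 2-fold higher, and 1.85% and 4.21% were at least 2-fold lower. The median log2 fold change was 1.16 over the 6 genes and 0.57 over the 2613. Since the fold changes were known when the 6 were picked, nothing is read from their share. PVT1, at 2.62-fold, stood past the 2-fold line with an interval that spans it (1.62 to 4.41). TUG1, at 1.89-fold, stood just under that line.

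**Figure D1:**
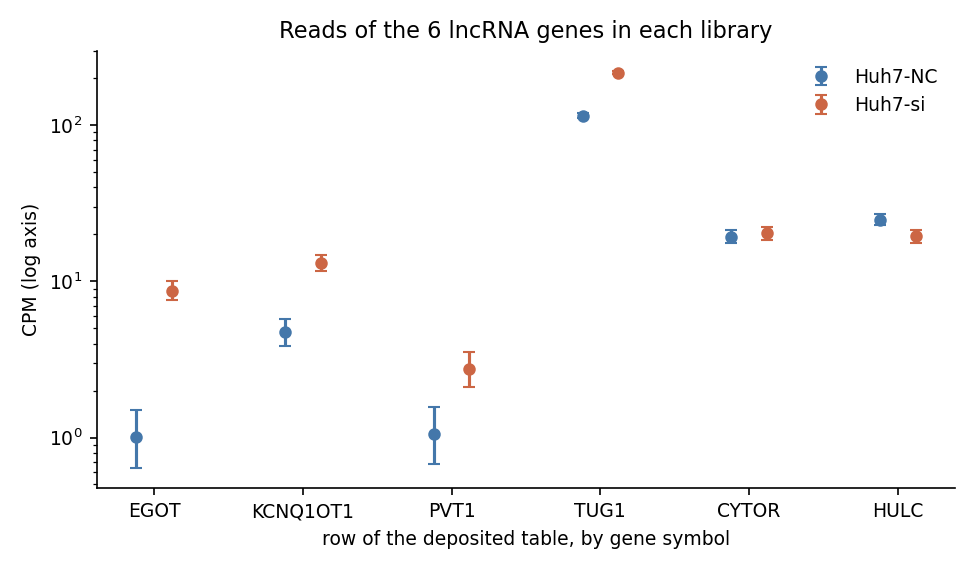
Reads per 1000000 (CPM, log axis) of each of the 6 lncRNA genes in Huh7-NC (blue) and Huh7-si (orange), 1 library each; bars are 95% Poisson intervals for counting error. EGOT goes from 1.01 to 8.74 CPM, while CYTOR (19.3 and 20.3 CPM) and HULC (24.9 and 19.4 CPM) stay within a narrow range.

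EGOT (ENSG00000235947) had the largest difference of the 6. It lies at chr3:4749192-4751590 of GRCh38 on the minus strand, with 1 annotated transcript of 2 exons and 1464 bases. It had 23 reads in Huh7-NC against 193 in Huh7-si, or 1.01 CPM (interval 0.638 to 1.51) and 8.74 CPM (7.55 to 10.1). The log2 fold change was 3.12 (2.49 to 3.81), an 8.68-fold difference. By log2 fold change EGOT ranked 119 of the 2613 lncRNA genes with 10 or more reads over both libraries. That rank places lncRNA genes at 0 reads in Huh7-NC above EGOT, and 62 of the 2613 were at 0 in one library. Among the 672 with 100 or more and under 1000 reads, 21.0% of which were at least 2-fold higher (median 0.38), it ranked 3. EGOT is in that class only through its 193 reads in Huh7-si, so the rank of 3 is not a measure of how unusual it is.

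The whole of EGOT lies inside ITPR1, the gene of an inositol trisphosphate receptor that releases calcium from the endoplasmic reticulum, on the other strand. It falls within an intron of 19 of the 56 annotated ITPR1 transcripts, and no ITPR1 exon overlaps an EGOT exon. ITPR1 had 179 reads in Huh7-NC against 316 in Huh7-si (log2 fold change 0.87, 0.60 to 1.14). The level of EGOT beside ITPR1 depends on the length used. By deposited TPM, which is scaled for length, EGOT was at 0.34 and ITPR1 at 2.30 in Huh7-NC, and at 3.92 and 3.76 in Huh7-si. By CPM per 1000 bases of the deposited gene length, an alternative chosen after seeing the data, EGOT was at 0.687 (0.436 to 1.03) and ITPR1 at 0.791 (0.679 to 0.915) in Huh7-NC, and at 5.97 (5.16 to 6.87) and 1.44 (1.29 to 1.61) in Huh7-si. Whether counting used the strand was not given in the sources used here, so intronic ITPR1 reads and EGOT reads may not be separable, and their part in the difference was not tested. Of 480 lncRNA genes that lie inside a protein-coding gene of the other strand, 40.0% were at least 2-fold higher (median log2 fold change 0.63).

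The protein-coding genes on either side of EGOT differed less. BHLHE40, a transcription factor of the cell clock and stress responses, had 1210 and 2085 reads (log2 fold change 0.83), and SUMF1, which activates sulfatases, had 811 and 796 reads (0.02).

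KCNQ1OT1 (ENSG00000269821) is transcribed from the paternal chromosome, antisense to KCNQ1, and is known for silencing a cluster of imprinted genes. It lies at chr11:2608328-2699994 of GRCh38 on the minus strand as 1 exon of 91667 bases. It had 108 reads in Huh7-NC against 291 in Huh7-si, or 4.72 CPM (3.88 to 5.71) and 13.2 CPM (11.7 to 14.8), so the intervals did not overlap. The log2 fold change was 1.48 (1.16 to 1.81), a 2.79-fold difference, and the gene ranked 64 of the same 672 lncRNA genes. Longer genes were higher in Huh7-si. Over 20 bins of the deposited length the median went from -0.17 in genes of 701 to 959 bases to 0.67 in genes of 8484 bases or more. KCNQ1OT1 falls in the last bin, which leaves 0.81 for it, under 2-fold.

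KCNQ1, the potassium channel gene around it, had 0 reads in Huh7-NC against 1 in Huh7-si, and none of the 5 genes that overlap KCNQ1OT1 had 10 reads. The list of genes from both imprinting domains of this region held 15 genes, 9 of them with 10 or more reads. Of these, 7 were below 0 on the log2 scale and 2 above. Their median was -0.34 against 0.21 over all genes tested, with no allowance for length. H19 alone was past 2-fold in either direction, where 15.3% of all genes were higher and 1.85% lower.

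The maternally expressed genes of the domain are those KCNQ1OT1 is known to silence. CDKN1C, a cell cycle inhibitor, had 118 reads in Huh7-NC against 81 in Huh7-si (log2 fold change -0.49, -0.92 to -0.07). PHLDA2, a growth-limiting gene of the placenta, had 834 and 559 reads (-0.53, -0.69 to -0.37). Both were lower in Huh7-si, with intervals below 0. The transporter gene SLC22A18 had 995 and 792 reads (-0.28, -0.42 to -0.14), and its antisense partner SLC22A18AS had 25 and 13 (-0.89, -1.98 to 0.13). Genes nearby whose imprinting in humans is less settled were below 0 as well. NAP1L4, a histone chaperone gene, had 3585 and 2597 reads (-0.42), TSSC4 1220 and 930 (-0.34) and the tetraspanin gene CD81 2262 and 2020 (-0.11). In the neighboring domain the growth factor gene IGF2 had 11385 and 13121 reads (0.25), and the lncRNA H19 had 6.63 and 14.07 reads (1.13, -0.36 to 2.60), too few to place on either side of 0. TSPAN32, ASCL2, OSBPL5, KCNQ1DN and INS had no reads in either library. After subtraction of the like-length median CDKN1C was at -0.53, PHLDA2 at -0.36, SLC22A18 at -0.24 and SLC22A18AS at -0.93. On that scale NAP1L4 was at -0.45, TSSC4 at -0.26, CD81 at 0.06, IGF2 at 0.30 and H19 at 1.05. A part of KCNQ1OT1 in these values was not tested.

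**Figure D2:**
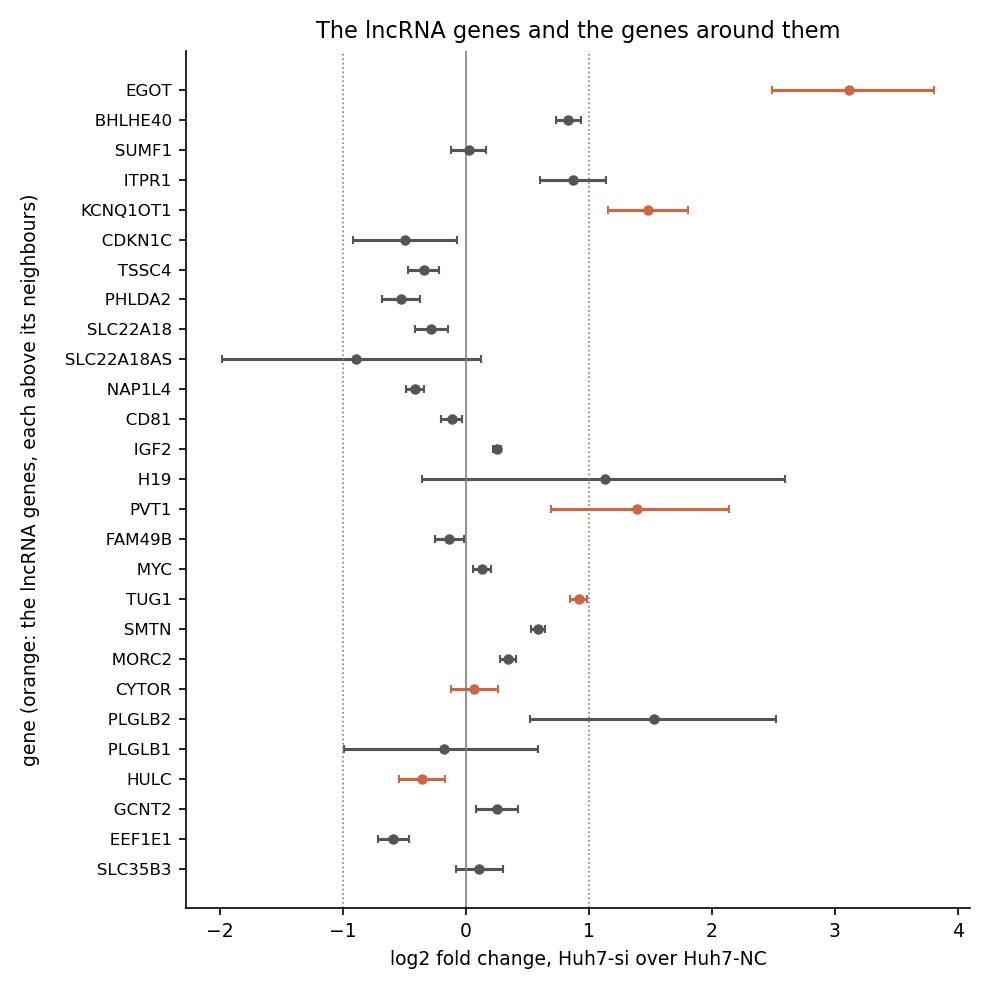
Log2 fold change (Huh7-si over Huh7-NC, 1 library each) of the lncRNA genes (orange) and of genes around them (gray), each lncRNA standing above its own neighbors; bars are 95% intervals for counting error, and dotted lines mark 2-fold. EGOT (3.12) lies to the right of ITPR1 (0.87), and KCNQ1OT1 (1.48) to the right of CDKN1C (-0.49) and PHLDA2 (-0.53).

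PVT1 (ENSG00000249859) starts 53099 bases past MYC and hosts several microRNAs; its RNA is known for raising the level of MYC protein. It lies at chr8:127794533-128101253 of GRCh38 on the plus strand, with 25 annotated transcripts. It had 24.1 reads in Huh7-NC against 61 in Huh7-si, or 1.05 CPM (0.673 to 1.56) and 2.76 CPM (2.11 to 3.55). The log2 fold change was 1.39 (0.69 to 2.14), a 2.62-fold difference whose interval, 1.62 to 4.41, spans the 2-fold line. PVT1 ranked 525 of 1870 lncRNA genes with 10 or more and under 100 reads, 39.5% of which were at least 2-fold higher (median 0.68). MYC had 2921 and 3089 reads (log2 fold change 0.13, 0.06 to 0.20). On the other side the nearest protein-coding gene with 10 or more reads was FAM49B, 1738340 bases away, with 1270 and 1118 reads (-0.13). Of 10 genes that overlap PVT1, 4 of them microRNAs, 9 have a row in the table and none of those had 10 reads.

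TUG1 (ENSG00000253352), an RNA known for binding the Polycomb repressor, had by far the most reads of the 6. It lies at chr22:30969245-30979395 of GRCh38 on the plus strand with 20 annotated transcripts. It had 2632 reads in Huh7-NC against 4813 in Huh7-si, or 115 CPM (111 to 120) and 218 CPM (212 to 224), with a log2 fold change of 0.92 (0.85 to 0.99). Its depth made this the narrowest interval of the 6, and all of it lay under 2-fold. TUG1 ranked 16 of the 71 lncRNA genes with 1000 or more reads, 21.1% of which were at least 2-fold higher (median 0.32). After subtraction of the like-length median, 0.54, its value was 0.38, while the TPM values, 26.29 and 54.31, gave 1.05.

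The neighbors of TUG1 had smaller differences before any allowance for length. MORC2, a chromatin-silencing ATPase gene that starts beside TUG1, had 3464 and 4248 reads (log2 fold change 0.34), and SMTN, a smooth muscle cytoskeletal gene, 4127 and 5994 (0.59). After subtraction of the like-length median MORC2 was at -0.07 and SMTN at 0.38, level with TUG1 (0.38). RF01891, a short annotated RNA within TUG1 on the same strand, had 0 and 18.9 reads, and its reads cannot be told apart from those of TUG1.

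CYTOR (ENSG00000222041), also named LINC00152 and known as a cytoskeleton regulator, was nearly level. It lies at chr2:87454781-87636740 of GRCh38 on the plus strand with 38 annotated transcripts. It had 442 reads in Huh7-NC against 449 in Huh7-si, or 19.3 CPM (17.6 to 21.2) and 20.3 CPM (18.5 to 22.3), and the log2 fold change was 0.07 (-0.12 to 0.26). Its sign depends on the scaling: it was -0.15 by TMM, -0.14 by the median of ratios and -0.12 by the upper quartile. The value was -0.47 after subtraction of the like-length median. That median was taken at the deposited length, 7512 bases, which is the longest annotated transcript. Reads and TPM imply 579 bases in Huh7-NC and 541 in Huh7-si, as given below. Genes of 62 to 700 bases had a median of -0.05, so the -0.47 hangs on the length used.

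Because its copy shares the sequences printed above, CYTOR was also read together with MIR4435-2HG (ENSG00000172965). The copy had 958 and 919 reads (log2 fold change -0.01, -0.14 to 0.12). The sum, which does not depend on how reads were divided between the copies, was 1400 and 1367 reads, or 61.3 and 61.9 CPM (0.01, -0.09 to 0.12). CYTOR took 31.6% of it in Huh7-NC and 32.8% in Huh7-si, so the division hardly moved. AC133644.3, which overlaps CYTOR on the same strand, had 349 and 471 reads (0.48), and its reads may be shared with CYTOR. The nearest protein-coding genes with 10 reads are copies of a plasminogen-like gene. PLGLB2, 111347 bases beyond CYTOR, had 12.7 and 35.3 reads (1.53, 0.52 to 2.52), and PLGLB1, 432929 bases before it, 31.9 and 27.2 (-0.18, -0.99 to 0.59). Reads of near-identical copies may be split between them, so both values are uncertain.

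HULC was the only one of the 6 with an interval below 0, but its row covers far more than the HULC transcript. The identifier in that row, ENSG00000285219, is AL591485.1 in GENCODE release 29, a locus at chr6:8435568-9294133 of GRCh38 on the plus strand with 113 transcripts. RefSeq places HULC at bases 8652269 to 8653856 inside it, and 7 of the 113 transcripts have an exon there while 106 have none. The row had 568 reads in Huh7-NC against 429 in Huh7-si, or 24.9 CPM (22.9 to 27.0) and 19.4 CPM (17.6 to 21.3). The log2 fold change was -0.36 (-0.54 to -0.17), which is 0.781 of the Huh7-NC level, and it ranked 609 of the 672 lncRNA genes of its read class. How many of these reads came from HULC itself was not measured.

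Around the HULC locus, SLC35B3, a transporter gene of the Golgi that overlaps the locus on the other strand, had 437 and 456 reads (log2 fold change 0.11). EEF1E1, of the aminoacyl-tRNA synthetase complex and 332990 bases before the locus, had 1310 and 841 reads (-0.59). GCNT2, which makes the I blood group antigen and lies 1198090 bases after the locus, had 514 and 593 (0.26). RF02101, a short annotated RNA inside the RefSeq span of HULC on the same strand, had 23 and 11.3 reads (-0.97, -2.20 to 0.08). Its reads cannot be told apart from those of HULC.

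**Figure D3:**
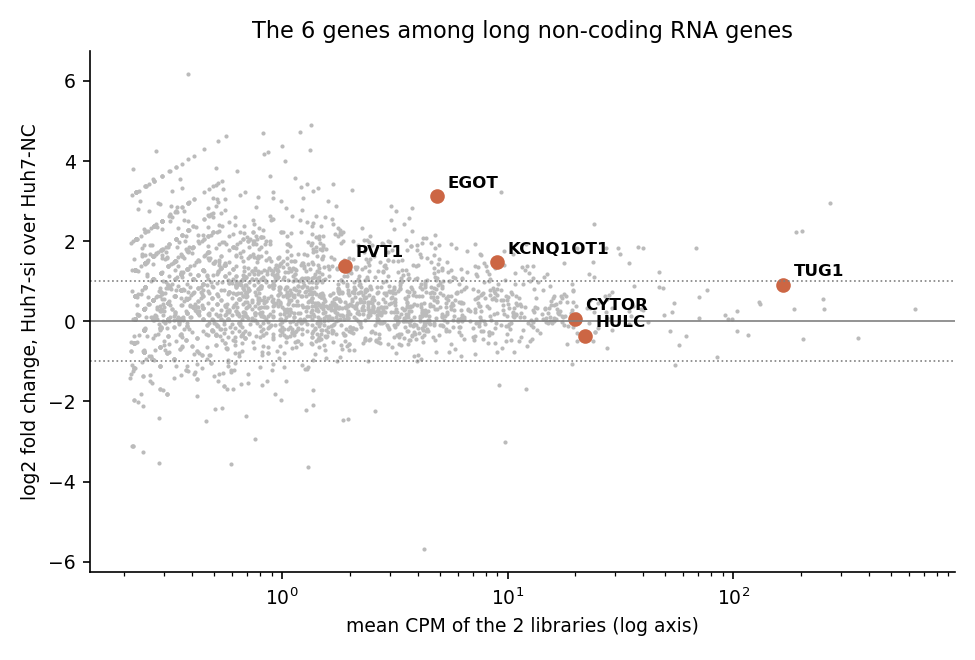
Log2 fold change (Huh7-si over Huh7-NC) against mean CPM of the 2 libraries (log axis) for lncRNA genes with 10 or more reads; gray points are 2551 lncRNA genes with reads in both libraries, orange points the 6 named genes, and dotted lines mark 2-fold. EGOT sits above nearly all genes of its mean CPM, a mean set mostly by its Huh7-si reads. PVT1 lies among many genes with like values and HULC below 0.

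The order of the 6 genes by level was read from the deposited TPM and differed in part between the libraries. In Huh7-NC it was CYTOR (65.66 TPM), HULC (40.38), TUG1 (26.29), PVT1 (1.32), EGOT (0.34) and KCNQ1OT1 (0.06), and no neighbors in that order had overlapping counting intervals. In Huh7-si it was CYTOR (73.25), TUG1 (54.31), HULC (35.36), EGOT (3.92), PVT1 (3.38) and KCNQ1OT1 (0.19). There the intervals of EGOT (3.39 to 4.51) and PVT1 (2.59 to 4.34) overlapped. By CPM per 1000 bases of the deposited length the order was another one, so the order of the genes is not settled by these values. For the HULC row, TUG1 and CYTOR the deposited length is the longest annotated transcript (3568, 7469 and 7512 bases). It is above the lengths that reads and TPM imply, given below, and a longer divisor gives a lower level. In Huh7-NC the order by deposited length was TUG1 (15.4), HULC (6.97), CYTOR (2.58), EGOT (0.687), PVT1 (0.430) and KCNQ1OT1 (0.051). Intervals of EGOT and PVT1 overlapped. In Huh7-si it was TUG1 (29.2), EGOT (5.97), HULC (5.44), CYTOR (2.70), PVT1 (1.13) and KCNQ1OT1 (0.144), with overlapping intervals for EGOT and HULC. The 3 genes that were at least 2-fold higher were the 3 lowest in Huh7-NC on both scales. That level is also the divisor of each fold, and the folds were known when the 6 were picked, so nothing is read from this. Among the 2613 lncRNA genes, EGOT stood at rank 1841 by TPM in Huh7-NC against 581 in Huh7-si, PVT1 at 972 and 664, KCNQ1OT1 at 2441 and 2475, TUG1 at 46 and 35, CYTOR at 23 and 25 and the HULC row at 31 and 46.

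The ratio of reads to TPM, scaled on genes with a single annotated transcript, gives an implied length for each gene and library. It is not a measured transcript length, as EGOT shows. The lengths in the libraries were close for 5 of the 6 and furthest apart for EGOT. KCNQ1OT1 came out at 91600 and 91948 bases, but the rounding of its low TPM allows 84572 to 99906 and 89595 to 94428, ranges that hold its single transcript of 91667. TUG1 came out at 5328 and 5487 bases, within its annotated 375 to 7469. CYTOR came out at 579 and 541 bases, near the short end of 323 to 7512, and PVT1 at 1163 and 1256, within 113 to 1699. These annotated lengths are those of GENCODE release 29, and the authors' transcript set is not known. For PVT1 the deposited length, 2450 bases, is above the annotated range. The HULC row came out at 952 and 901 bases, where the 2 annotated transcripts that lie at HULC have 947 and 1145 bases and the median of all 113 is 1556. EGOT came out at 3677 and 3125 bases (3627 to 3728 and 3122 to 3129 with the rounding of TPM). Both are longer than its span of 2399 and its only transcript in that release, of 1464 bases, which is also its deposited length. Whether the authors' transcript set held a longer one is not known.

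**Figure D4:**
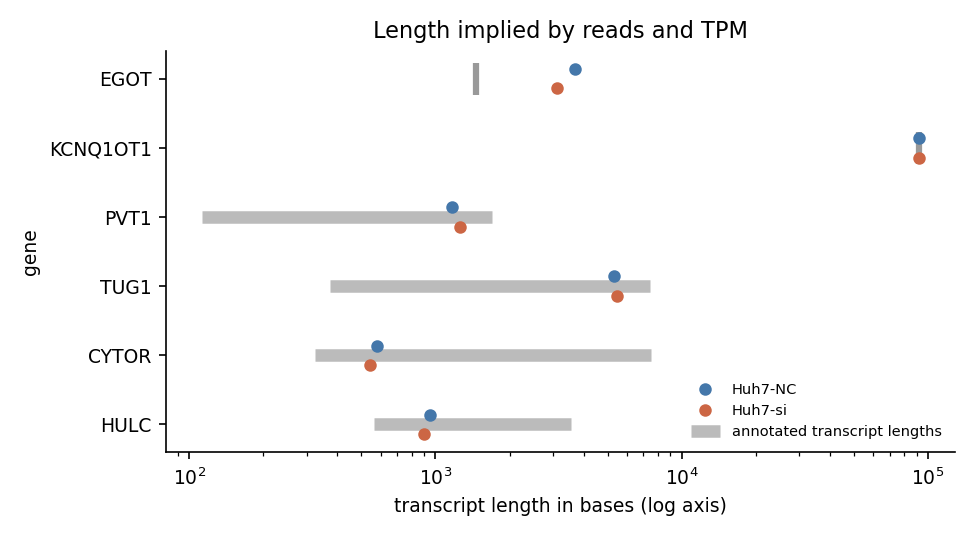
Transcript length in bases (log axis) implied by reads and TPM in Huh7-NC (blue) and Huh7-si (orange) for each gene, over the range of its annotated transcript lengths (gray bars; a tick where there is 1 transcript). The blue and orange points lie furthest apart for EGOT, to the right of its annotated length (3677 and 3125 bases), and they lie on the annotated length for KCNQ1OT1 (91600 and 91948 bases).

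None of the genes listed as partners or targets of the 6 lncRNAs reached 2-fold, where 15.3% of all genes were higher and 1.85% lower. Their log2 fold changes ranged from 0.87 for ITPR1, the gene around EGOT, to -0.66 for NCL. Of the 20, all with 10 or more reads, 14 were above 0 on the log2 scale and 6 below, with a median of 0.09 against 0.21 over all genes. For TUG1, the Polycomb genes EZH2 (log2 fold change 0.23), SUZ12 (0.28) and EED (-0.30) went different ways. For KCNQ1OT1, the histone methyltransferase gene EHMT2 was at -0.01 and the DNA methyltransferase gene DNMT1 at 0.18. For PVT1, the RNA methyltransferase gene NOP2 was at 0.00. For CYTOR, the adhesion gene EPCAM was at 0.08, KHDRBS1 at -0.02 and the nucleolin gene NCL, with 33161 and 20339 reads, at -0.66, the lowest of the list. For HULC, CREB1 (0.22), PRKACB (0.10), IGF2BP1 (0.22), PPARA (0.04), ACSL1 (0.23), HMGA2 (0.06), CDKN2C (-0.22) and SPHK1 (-0.24) lay within a narrow range, and CNOT1, the scaffold of the deadenylase complex, was at 0.51.

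The size of each difference moved with the processing, as the plot of the 6 genes under each setting shows. Scaling by TMM, the median of ratios or the upper quartile in place of the total lowered every log2 fold change by 0.22, 0.21 or 0.19, and moved the share of higher genes among all genes past 2-fold from 89.2% to 78.4%, 79.9% or 81.3%. EGOT ranged from 2.28 to 3.53 and was past 2-fold under all 7 alternatives, and HULC ranged from -0.58 to -0.19 and was below 0 under all 7. KCNQ1OT1 and PVT1 dropped under 2-fold in 1 alternative each, KCNQ1OT1 (0.81) after subtraction of the like-length median and PVT1 (0.87) with a pseudocount of 1 CPM. TUG1 passed 2-fold by TPM alone (1.05).

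**Figure D5:**
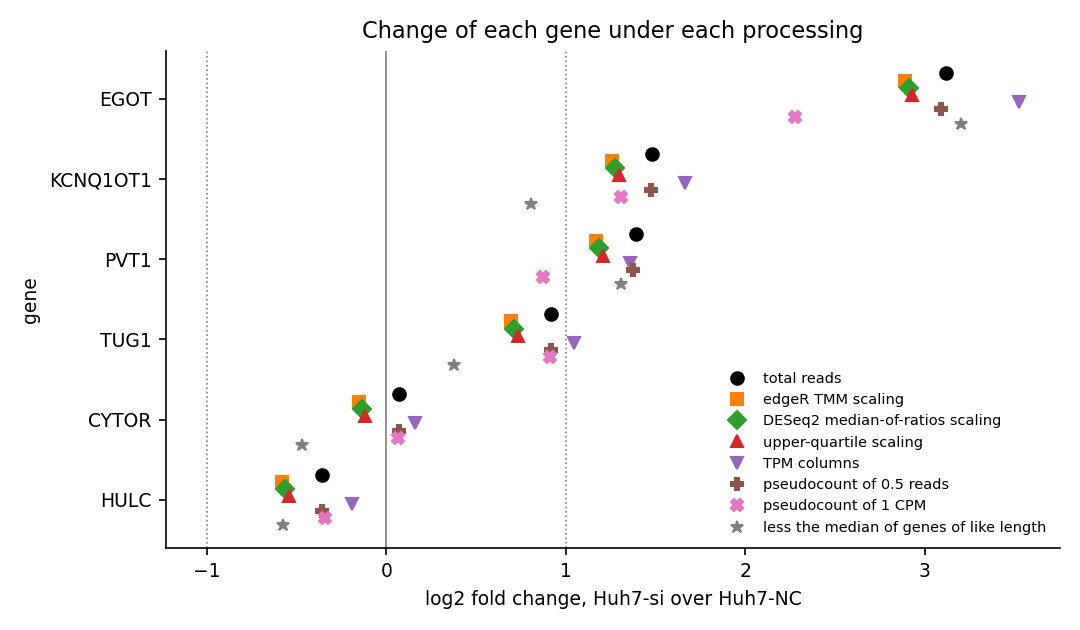
Log2 fold change (Huh7-si over Huh7-NC) of each gene under the scaling by total reads (black) and 7 alternatives (other symbols, named in the key); dotted lines mark 2-fold and the gray line no difference. EGOT stays to the right of 2, HULC to the left of 0, and CYTOR lies on both sides of 0.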

How the data were processed

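RNA-seq was done on 1 library of Huh7-NC and 1 of Huh7-si, both from total RNA. The authors deposited one table with an estimated count per gene and library, not scaled to library size, a TPM value scaled by the authors for length and depth, and a gene length. The submitters' processing notes name Bowtie2 2.0.6, TopHat2 2.0.12 and GRCh37; the counting tool, annotation and strand setting are not given in the sources used here. GENCODE release 29 (GRCh38) held 94.8% of the identifiers and gave positions and gene types, so positions are those of that build and not of the authors' processing. A fractional count, as arises when reads are divided between genes, stood at 44.4% of 26379 genes. The deposited fold, log2 and p-value columns hold the authors' own comparison and were not used. No per-sample columns were left unmapped.

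Fold changes were ratios of CPM from the estimated counts, without a pseudocount. Counts were rounded to whole numbers for the intervals. Genes with at least 10 reads over both libraries were compared, and past 2-fold includes genes at 0 in one library. With 1 library per condition no test was run, and no p-value is given. The 6 genes, the lists and the alternatives were chosen with earlier results of these data known. Genes were named by a rule: the 6 genes, the genes that overlap them, the nearest protein-coding gene with 10 reads on each side, MIR4435-2HG, BRF2, and lists of imprinted genes, partners, other hepatoma lncRNAs and cell markers. A planned gene of the partner list is not reported here. Genes of like pattern were not named, because likeness over 2 libraries is not defined.

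Genes of like length came from 20 bins of the deposited length. For the HULC row, TUG1 and CYTOR that length is the longest annotated transcript. For the HULC row and CYTOR it is far above the implied length. Implied lengths were reads over TPM, scaled on 623 and 700 genes with a single transcript in Huh7-NC and Huh7-si. Promoter and microRNA sequences came from RefSeq (GRCh38.p14); no promoter of HULC or KCNQ1OT1 was used here. The steps for the fold and its counting interval were tested on counts simulated from a Poisson model, which that interval itself assumes. The software was NumPy 2.4.6 and SciPy 1.17.1, with pandas 2.3.3 for tables and matplotlib 3.10.9 for plots, under Python 3.11.15. For scalings alone, edgeR 4.0.16 and DESeq2 1.42.0 were run under R 4.3.3.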

Additional observations from a re-analysis of the deposited data

How the results depend on the processing

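The alternatives were other scalings, the TPM columns, a pseudocount of 0.5 reads or 1 CPM, other filters, a fold of 1.5, and subtraction of the median of genes of like length. The count of the 6 lncRNAs at least 2-fold higher was 3, and it was 4 by TPM or at a fold of 1.5 and 2 with a pseudocount of 1 CPM or less the like-length median; no setting put any of them 2-fold lower. CYTOR and MIR4435-2HG together moved from 0.01 to -0.21 (TMM), -0.19 (median of ratios), -0.17 (upper quartile) and -0.47 (like-length). The like-length value rests on deposited lengths of 7512 and 6654 bases, where reads and TPM imply 579 and 836 in Huh7-NC. The count of all genes at least 2-fold higher, 2740, became 911 with a pseudocount of 1 CPM, 5194 at a fold of 1.5, 7630 with any read and 1453 with 10 reads in each library. The 332 lower genes became 551 (TMM), 519 (median of ratios), 43 (1 CPM), 1050 (fold of 1.5), 2410 (any read) and 108 (10 reads in each library). CYTOR and the sum of the copies changed sign with the other scalings and with the like-length median of the deposited length. The 3 genes past 2-fold did not change sign under any of the 7 alternatives. No paired analysis was possible because each condition has 1 library, and for the same reason no replicate could be left out. With 23 and 24.1 reads in Huh7-NC, EGOT and PVT1 have wide intervals, and no interval covers the spread between cultures.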

Other observations

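Other lncRNAs studied in hepatoma were described by the same measures. Of the 22 listed, 21 had a row and 16 had 10 or more reads; 13 of these were above 0 on the log2 scale and 3 below, with a median of 0.43 against 0.57 over the 2613 lncRNA genes. H19 alone was past 2-fold, with 6.63 reads in Huh7-NC against 14.07 in Huh7-si. Of the 2613 lncRNA genes, 34.3% were at least 2-fold higher and 4.21% at least 2-fold lower. FTX, an RNA of the X-inactivation center, had 126 and 244 reads (log2 fold change 0.995, interval 0.69 to 1.32), and NORAD, which binds Pumilio proteins, had 4610 and 6598 (0.57, 0.51 to 0.62). TP73-AS1 had 642 and 943 reads (0.60) and GAS5, a host gene of small nucleolar RNAs, 2548 and 3336 (0.44). DANCR had 5387 and 3811 reads (-0.45, -0.51 to -0.39), the lowest value of the list. UCA1 (2219 and 2234 reads, 0.06) and LINC00261 (2123 and 2140 reads, 0.06) were nearly level at depths like that of TUG1 in Huh7-NC. MEG3 (1.38 and 0 reads), FENDRR (0 in both) and LINC-ROR (1 and 2 reads) were at or near 0.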
